A study of Mus musculus with 2 samples.

Results

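The S100 calcium-binding proteins were followed through 8 genes, S100a8, S100a9, S100a1, S100a4, S100a6, S100a10, S100a11 and S100a13, which were taken by gene symbol from a list drawn up with earlier results of these data known. Each had 1 probe, so they made up 8 of the 45281 probes and 8 of the 19057 named genes on the array. The mice were C57BL/6 females aged 22 weeks, and RNA of the tibia from 3 mice was pooled and put on 1 array per genotype. The control pool was Terc+/+. The other was Terc-/-, labelled G3, which lacks the RNA template of telomerase in every cell, and neither pool was treated. With 1 array per genotype there was no replicate check, so no p-value or error could be given, and the differences below describe these 2 pools. Precision is limited by the number of arrays.

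S100 proteins are small dimeric proteins with a pair of calcium-binding EF-hand loops, and most of them change shape on binding calcium and then dock on a partner protein. S100a8 and S100a9 form the heterodimer calprotectin, an abundant cytosolic protein of neutrophils that withholds zinc and manganese from microbes and, once released, signals through the receptors Tlr4 and Ager. Other members act mainly inside cells, on annexins, myosin or calcium channels. Whole tibia holds marrow, bone, cartilage and attached muscle, so several of its cell types can contribute S100 transcripts. In such a bulk sample, fewer cells of a type and less RNA per cell cannot be told apart.

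The windows before the start sites of the pair of calprotectin genes, and of the gene with the largest difference, are shown first because their lettering differs although the genes share a family and a chromosome. They are the 250 bases before the annotated start, from RefSeq on build GRCm38.p6, with each motif match in capitals, and 7 of the 8 genes had a window in that table.
S100a8, chr3:90668821-90669070, plus strand: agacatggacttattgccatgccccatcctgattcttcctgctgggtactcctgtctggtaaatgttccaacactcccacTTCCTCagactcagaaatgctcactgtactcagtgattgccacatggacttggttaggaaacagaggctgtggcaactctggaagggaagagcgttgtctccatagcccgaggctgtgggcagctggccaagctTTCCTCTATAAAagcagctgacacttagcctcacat
S100a9, chr3:90695722-90695971, minus strand: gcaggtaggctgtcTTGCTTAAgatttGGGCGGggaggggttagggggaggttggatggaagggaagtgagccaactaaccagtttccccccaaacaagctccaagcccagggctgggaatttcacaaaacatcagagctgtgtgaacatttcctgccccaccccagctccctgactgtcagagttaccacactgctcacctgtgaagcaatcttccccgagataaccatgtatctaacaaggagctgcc
S100a11, chr3:93520246-93520495, plus strand: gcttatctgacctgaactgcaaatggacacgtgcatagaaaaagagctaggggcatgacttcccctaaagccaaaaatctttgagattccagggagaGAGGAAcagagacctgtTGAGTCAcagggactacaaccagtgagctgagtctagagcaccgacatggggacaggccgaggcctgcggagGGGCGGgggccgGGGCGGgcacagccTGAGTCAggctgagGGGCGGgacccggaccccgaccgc
The motifs searched were TATAAA on the gene's strand and, on both strands, the C/EBP core TTGCNNAA, the PU.1-type ETS core GAGGAA, the AP-1 core TGANTCA and the GC box GGGCGG. C/EBP proteins and PU.1 are transcription factors of myeloid cells, and AP-1 is a stress-responsive factor. A match is a description of the letters and not evidence of binding.

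The S100a8 window held TATAAA at -30 to -25 from the start site, directly after a GAGGAA match read on the other strand at -36 to -31, and a further GAGGAA match at -170 to -165. The S100a9 window held neither of those letterings, and had a C/EBP core at -236 to -229 and a GC box at -223 to -218. The S100a11 window held 3 GC boxes, 2 AP-1 cores and 1 GAGGAA, and no TATAAA. Over all 32851 windows of the table, TATAAA occurred in 7.59%, the C/EBP core in 9.56%, GAGGAA in 23.3%, the AP-1 core in 6.75% and the GC box in 32.7%. Of the 7 S100 windows, TATAAA occurred in 2 (S100a8 and S100a4), the C/EBP core in 1, GAGGAA in 2, the AP-1 core in 1 and the GC box in 2.

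All 8 genes were above background on both arrays, with a detection p of 0 in all 16 readings (detection below means a p under 0.01). S100a11 alone passed 2-fold and was higher in the Terc-/- pool, S100a6, S100a13 and S100a4 were higher by less, S100a8 and S100a9 differed little and were among the brightest probes, S100a1 was nearly level and S100a10 was lower. Raw intensity below is the deposited non-normalized signal in arbitrary units, and a difference is Terc-/- minus Terc+/+ on the log2 scale after background correction and quantile normalization. Among 9953 genes detected on at least 1 array, 7.79% were higher by 2-fold or more and 10.4% were lower by as much. Of the 8 S100 genes, 1 was 2-fold or more higher and 0 were lower by as much, which with so few genes is near that background. Of the 8 genes, 6 had a difference above 0 (5 to 7 under other processing settings), against 50.8% of all detected genes. Their median difference was 0.34, beside 0.01 over all detected genes.

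**Figure D1:**
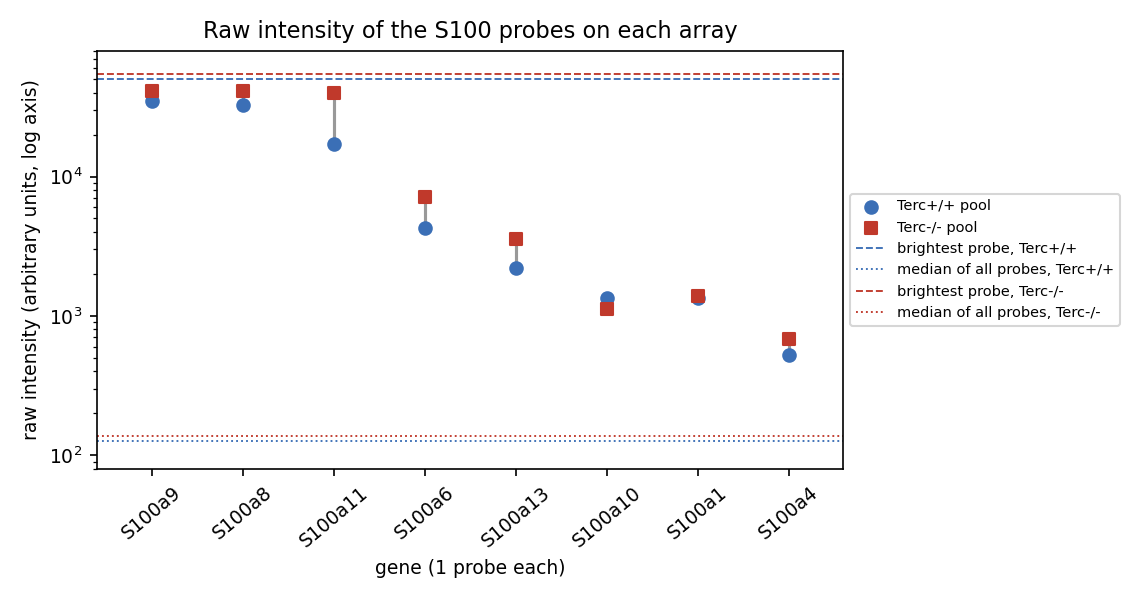
Raw intensity (log axis, arbitrary units) of the 1 probe of each S100 gene on the Terc+/+ array (circles) and the Terc-/- array (squares), with the brightest probe of each array as a dashed line and the median probe as a dotted line. S100a9 and S100a8 lie just under the dashed lines on both arrays, S100a11 joins them only in Terc-/-, and the other 5 genes lie well below.

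The calprotectin subunits were among the brightest probes of both arrays. S100a8 had a raw intensity of 32607 in Terc+/+ and 40938 in Terc-/-, and S100a9 had 35129 and 40952. The brightest probe of the whole array read 49790 in Terc+/+ and 54575 in Terc-/-, so S100a8 stood at 65.5% and 75.0% of that maximum and S100a9 at 70.6% and 75.0%. In the order of all 45281 probes, from the brightest down, S100a8 was number 63 in Terc+/+ and 43 in Terc-/-, and S100a9 was number 53 and 42. These positions describe where a probe sits on the scanner's scale and not the abundance of one transcript against another.

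After normalization S100a8 read 15.05 in Terc+/+ and 15.26 in Terc-/-, a difference of 0.21, or 1.16-fold higher. S100a9 read 15.16 and 15.27, a difference of 0.11, or 1.08-fold higher. Both subunits therefore differed by less than 2-fold, and their differences lay 0.10 apart. With cyclic loess in place of quantile normalization, S100a8 differed by 0.053 and S100a9 by -0.055, so no direction can be given for S100a9.

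S100a8 and S100a9 lay close to the brightest probe of each array. The brightest probe of the Terc-/- array was 1.67-fold the Terc+/+ intensity of S100a8 and 1.55-fold that of S100a9, so a 2-fold higher raw signal would have lain above every probe of that array. Quantile normalization gives both arrays the same highest value, and the gap to it from the Terc+/+ value was 0.62 for S100a8 and 0.51 for S100a9. For S100a11 that gap was 1.48, and for the other 5 genes it ran from 3.55 to 6.97. The 100 genes with the highest mean level, which include S100a8, S100a9 and S100a11, held 4 that were higher by 2-fold or more and 4 that were lower by as much. Their differences ran from -2.13 to 1.61, with quartiles of -0.15 and 0.28. The files used here give no scanner limit, and saturation was not tested.

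**Figure D2:**
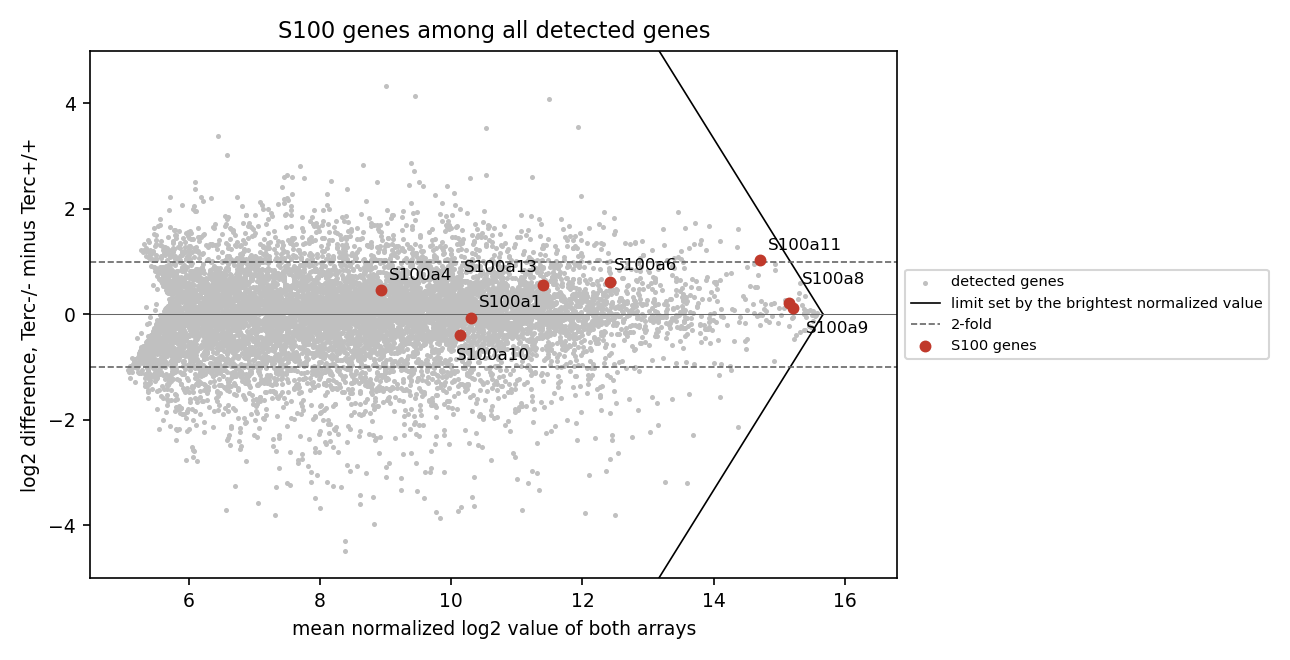
Log2 difference, Terc-/- minus Terc+/+, against the mean normalized log2 value of both arrays for the 9953 detected genes (grey), with the 8 S100 genes in red. Dashed lines mark 2-fold and the solid lines mark the largest difference that the brightest normalized value allows. S100a8 (0.21) and S100a9 (0.11) lie in the narrow tip between the solid lines, and S100a11 (1.02) lies just above the dashed 2-fold line.

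Most other neutrophil transcripts were higher in the same comparison. All 18 neutrophil markers with a probe were detected on both arrays, 11 were higher by 2-fold or more, 0 were lower by as much, and their median difference was 1.28. Their summed raw intensity was 245947 in Terc+/+ and 424044 in Terc-/-. Itgam, the CD11b integrin chain of myeloid cells, differed by 2.21 and Gfi1, a transcription factor of granulocyte development, by 1.96. The part of neutrophil content in the S100 differences was not tested.

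The markers did not differ alike. Ltf, Camp, Lcn2 and Mpo differed by -0.23, 0.13, 0.59 and 0.17, a range that holds the differences of S100a8 and S100a9. Their normalized Terc+/+ values were 15.57, 14.93, 15.01 and 15.26, so these genes too lay close to the highest normalized value. Quantile normalization limited their upward differences as it did those of S100a8 and S100a9, so this nearness is not a free comparison. Ngp, a protein of secondary granules, read 21432 in Terc+/+ and 45590 in Terc-/- and differed by 0.96. Prtn3, proteinase 3 of primary granules, read 11562 and 38521 and differed by 1.61. These genes were singled out after their values were seen.

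Probes of a single gene differed too. Mpo, the myeloperoxidase of primary granules, had 4 detected probes. Its brightest probe read 37879 in Terc+/+ and 46342 in Terc-/- and differed by 0.17, and the next read 29027 and 50120 and differed by 0.64. The 2 dimmer Mpo probes read 4197 and 12457, a difference of 1.42, and 1595 and 6656, a difference of 1.99. Ltf, lactoferrin of specific granules, differed by -0.23 on a probe reading 47315 and 43364, and by 0.86 on a probe reading 2875 and 5758. For both genes the dimmer probe gave the higher difference. S100a8 and S100a9 had no dimmer probe, so their differences have no such second reading. Mpo and Ltf were singled out after their values were seen.

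**Figure D3:**
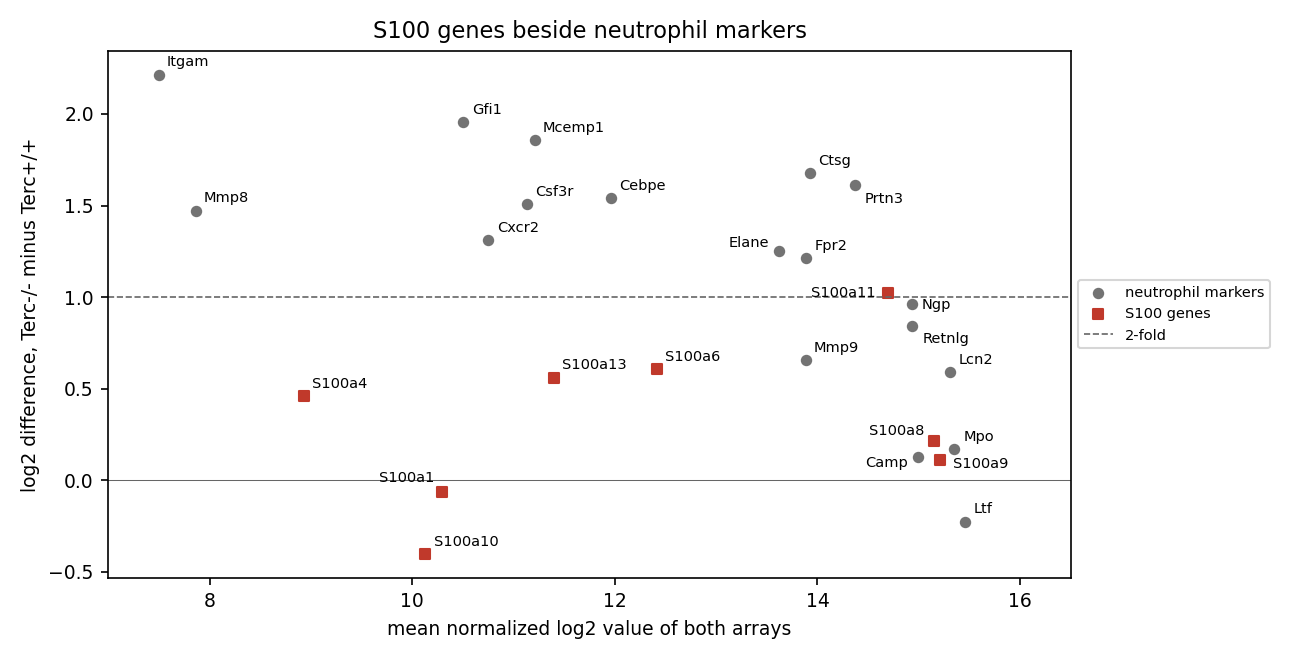
Log2 difference, Terc-/- minus Terc+/+, against the mean normalized log2 value of both arrays for the 18 detected neutrophil markers (grey circles) and the 8 S100 genes (red squares), 1 point per gene. The dashed line is 2-fold. Of the markers 17 lie above 0, and S100a8 (0.21) and S100a9 (0.11) lie beside Camp (0.13) and Mpo (0.17) at the right. The highest normalized value limits the upward differences of the genes at the right.

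By the nearest difference among the 207 genes detected on both arrays whose probes were in the brightest 1% of each, the genes most like S100a8 were Rpl9, Ldha and Rps3, which differed by 0.21 each. Those most like S100a9 were Rplp2, Psap and Rpl31, at 0.11, 0.11 and 0.10. With 2 arrays this likeness rests on a single difference per gene.

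Among the receptors listed for S100 proteins, some were higher and others differed little. Of 9 listed genes, which include the adaptor Myd88, 7 were detected, and their median difference was 1.17. Of these 7, 4 were higher by 2-fold or more and 0 were lower by as much, beside 7.79% and 10.4% of all detected genes. This list was chosen with earlier results of these data known, and its counts were not recomputed under other settings. Without Myd88, 3 of 6 detected genes were 2-fold or more higher, with a median of 0.98. Ager, which encodes the receptor RAGE, read 197 in Terc+/+ and 343 in Terc-/- on its brighter probe, a difference of 1.35. That probe fell short of 2-fold without background correction (0.78) and in the deposited normalized values (0.80). The other Ager probe read 140 and 231 and was above background in Terc-/- only, so its difference of 1.64 is set against a background reading. Tlr4 differed by 0.62 on a probe reading 352 and 492, and by 1.19 on a second reading 276 and 499.6. Its direction was the same on both probes, but only the second passed 2-fold. That second probe fell short of 2-fold without background correction (0.84) and in the deposited normalized values (0.86). Ly96, the co-receptor MD-2 of Tlr4, differed by -0.13, and the adhesion molecule Alcam by 0.28.

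Cd14, the co-receptor that hands lipopolysaccharide to Tlr4, differed by 1.73. Myd88, the adaptor below Tlr4, differed by 1.17, and Cd33, a sialic-acid receptor of myeloid cells described in human as a receptor for S100A9, by 2.10. Bsg, a further S100A9 receptor known from human cells, and Cd36 were not above background on either array. Of the NADPH oxidase subunits that calprotectin supplies with arachidonic acid, Cyba differed by 1.04, and Cybb was not above background at the detection threshold used. Which cells carried these receptor transcripts was not tested.

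S100a11, which binds annexin A1 at membranes, had the largest difference of the 8 genes. It read 17141 in Terc+/+ and 39593 in Terc-/-, which was 34.4% and 72.5% of the brightest signal. Its place in the order of probes was number 181 in Terc+/+ and 49 in Terc-/-. On the normalized scale it read 14.19 and 15.21, a difference of 1.02, or 2.03-fold higher. This lies only just past 2-fold, and with cyclic loess it was 0.95 and short of it. The gene table also lists a pseudogene, S100a11-ps, and whether the S100a11 probe takes up its transcript was not tested.

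Anxa1 itself, an annexin of neutrophils and other cells that restrains inflammation, read 1781 in Terc+/+ and 6603 in Terc-/- and differed by 1.80. Anxa11, another annexin, differed by 1.36 on its brightest probe. A further Anxa11 probe read 130 in Terc+/+ and 281 in Terc-/- and was above background in Terc-/- only. Its difference of 2.41 is thus set against a background reading, and without background correction it was 1.04. Anxa5 and Anxa6 differed by -0.08 and -0.24. The annexins of the list thus did not differ alike.

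S100a10 differed in the other direction from its neighbour S100a11. It does not respond to calcium, and it joins annexin A2 in a complex that binds plasminogen and the scaffold protein Ahnak. S100a10 read 1348 in Terc+/+ and 1116 in Terc-/-, and on the normalized scale 10.33 and 9.93, a difference of -0.40, or 1.32-fold lower. Of the 8 genes it was the only one below 0 under each of the 7 ways of scaling.

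Its partner Anxa2 was higher, at 16117 in Terc+/+ and 33747 in Terc-/-, a difference of 0.89, with a dimmer probe at 1.37. The 3 detected probes of Ahnak lay between -0.21 and 0.09. Plat, the tissue plasminogen activator, was above background only on the Terc+/+ array and lower in Terc-/- by at least 1.29-fold, and Plg, plasminogen, was not above background on either array.

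S100a6 (calcyclin), a protein of fibroblasts and many dividing cells, read 4243 in Terc+/+ and 7141 in Terc-/-. Its normalized values of 12.11 and 12.72 gave a difference of 0.60, or 1.52-fold higher. Together with S100a11 it was 1 of 2 members at least 1.5-fold higher, a size that 18% of all detected genes reached. S100a6 passed that size narrowly, and fell short of it with cyclic loess (0.55) and in the deposited normalized values (0.57). Cacybp, the calcyclin-binding protein, differed by 0.05.

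S100a4, also called fibroblast-specific protein and made by fibroblasts and by myeloid cells, was the dimmest of the 8 probes. It read 519 in Terc+/+ and 686 in Terc-/-, and its normalized values of 8.70 and 9.16 gave a difference of 0.46, or 1.38-fold higher. Myh9, the non-muscle myosin heavy chain whose filaments S100a4 takes apart, differed by 0.46 on its brightest probe and by 0.52 on the next. Most fibroblast markers were lower in the same comparison. Of 8 detected, 5 were at least 2-fold lower and 0 higher, with a median difference of -1.16 and summed raw intensities of 26712 in Terc+/+ and 14231 in Terc-/-. The other 3 were Fn1 (fibronectin), at -0.11, Thy1, at -0.70, and Vim, the intermediate filament protein vimentin, which differed by 0.87 on its brightest probe and 0.35 on the other. The cells that carried S100a4 and S100a6 were not identified.

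S100a13, which takes part in the unconventional release of fibroblast growth factor 1, read 2223 in Terc+/+ and 3589.8 in Terc-/-. Its normalized values were 11.12 and 11.68, a difference of 0.56, or 1.47-fold higher, just short of 1.5-fold. With scaling to a common median (0.76) and as a raw ratio (0.69) S100a13 passed 1.5-fold. Fgf1 differed by -0.49. Il1a, another cargo of S100a13, was above background in Terc+/+ only. Its detected probe read 162 there and 152 in Terc-/-, so both readings were near background and close to each other.

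S100a1, the member best known from heart and skeletal muscle, where it binds the ryanodine receptor and the calcium pump, was nearly level. It read 1346 in Terc+/+ and 1379.7 in Terc-/-, and its normalized values of 10.33 and 10.26 gave a difference of -0.065. Scaled to a common median the difference was 0.076, so its direction is not settled. Muscle markers were lower beside it. Of 11 detected, 3 were at least 2-fold lower and 0 higher, with a median of -0.93 and summed raw intensities of 154398 and 84753.

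Of its 3 listed partners in muscle, 0 passed 2-fold. Ryr1, the ryanodine receptor of skeletal muscle, differed by between -0.79 and -0.66 over 3 detected probes, and Atp2a1, the calcium pump of fast fibres, by -0.67. The 3 detected probes of Atp2a2, the pump of slow fibres and heart, lay between -0.31 and 0.30. S100a1 is also made by chondrocytes, and of 8 detected cartilage markers 6 were at least 2-fold lower, with a median of -1.18. S100b, the other S100 protein of cartilage and of Schwann cells, was not above background on either array.

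Over the whole list of 20 binding partners, 19 had a probe and 15 were detected. By their normalized values 3 passed 2-fold upwards (Anxa1, Anxa11 and Cyba) and 1 downwards (Plat, at a bound of 1.29-fold), with a median difference of -0.21. Cyba fell short of 2-fold with cyclic loess (0.96) and in the deposited normalized values (0.98). Plat fell short of it without background correction (-0.53) and in the deposited normalized values (-0.49). The list of receptors with Myd88 gave a higher median, 1.17, and both lists were chosen with earlier results of these data known.

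The remaining S100 genes were at or near background. Of 9 listed, 8 had a probe, 2 were detected on both arrays and 6 on neither. S100a14 read 166 in Terc+/+ and 184 in Terc-/- on its detected probe and differed by 0.26, and S100a16 read 196 and 208 and differed by 0.13. S100a3, S100a5, S100a7a, S100b, S100g and S100z were not above background. All probes of these genes read between 116 and 208 on either array, while the 8 genes described above ran from 519 to 40952.

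The members all lie on chromosome 3, with 56 protein-coding genes between S100a9 and S100a11. The RefSeq gene table lists 15 S100a genes on that chromosome, in the order S100a1, S100a13, S100a14, S100a16, S100a3, S100a2, S100a4, S100a5, S100a6, S100a7a, S100a8, S100a9, S100a7l2, S100a11 and S100a10. Nearness on the chromosome did not go with a like difference for S100a11 and S100a10, which have no protein-coding gene between them and differed by 1.02 and -0.40. S100a8 and S100a9, also direct neighbours, differed by 0.21 and 0.11. S100a4 and S100a6, with undetected S100a5 between them, differed by 0.46 and 0.60.

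**Figure D4:**
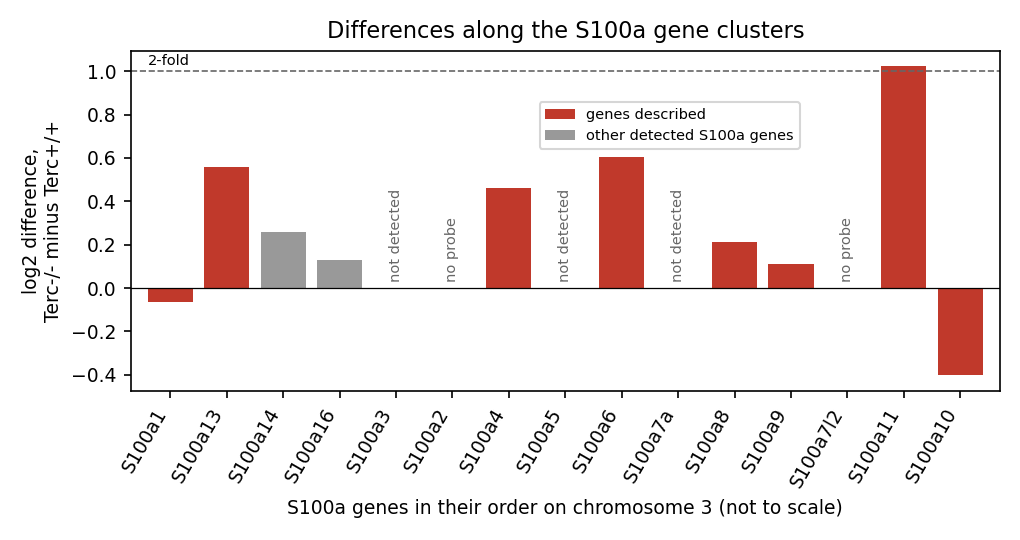
Log2 difference, Terc-/- minus Terc+/+, of the detected S100a genes in their order on chromosome 3 (equal spacing, not to scale), with the 8 genes described in red and the others in grey, and with undetected genes and genes without a probe written out. The dashed line is 2-fold. S100a11 (1.02) and S100a10 (-0.40) stand side by side at the right end with opposite signs.

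The stretch between S100a9 and S100a11 holds 56 protein-coding genes, among them S100a7l2 and the late cornified envelope, small proline-rich and S100-fused genes of the epidermis. Of these, 44 had a probe and 1 was detected, Sprr2a1, a member of a family of close copies, at 418 in Terc+/+ and 473 in Terc-/-. That is 2.27% of those with a probe, against 52.2% of all genes with a probe. Detected S100 genes thus lay on both sides of a stretch in which nearly no gene was detected on these arrays. Of 7 listed S100-fused genes of the skin, 4 had a probe and 0 were detected.

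S100a1 and S100a13 start head to head on opposite strands, and their windows overlap in the bases between the 2 starts. The S100a13 window is shown because it spans the bases between both starts, with the 104 shared bases (chr3:90514331-90514434) in capitals.
S100a13, chr3:90514185-90514434, plus strand: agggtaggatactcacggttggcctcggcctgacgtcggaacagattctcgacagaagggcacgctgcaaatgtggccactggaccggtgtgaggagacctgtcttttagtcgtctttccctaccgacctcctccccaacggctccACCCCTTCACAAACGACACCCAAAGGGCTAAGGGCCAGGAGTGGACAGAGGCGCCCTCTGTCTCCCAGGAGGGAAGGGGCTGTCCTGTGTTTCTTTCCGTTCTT
None of the 5 motifs occurred in either of these 2 windows, and the genes differed by -0.065 and 0.56.

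**Figure D5:**
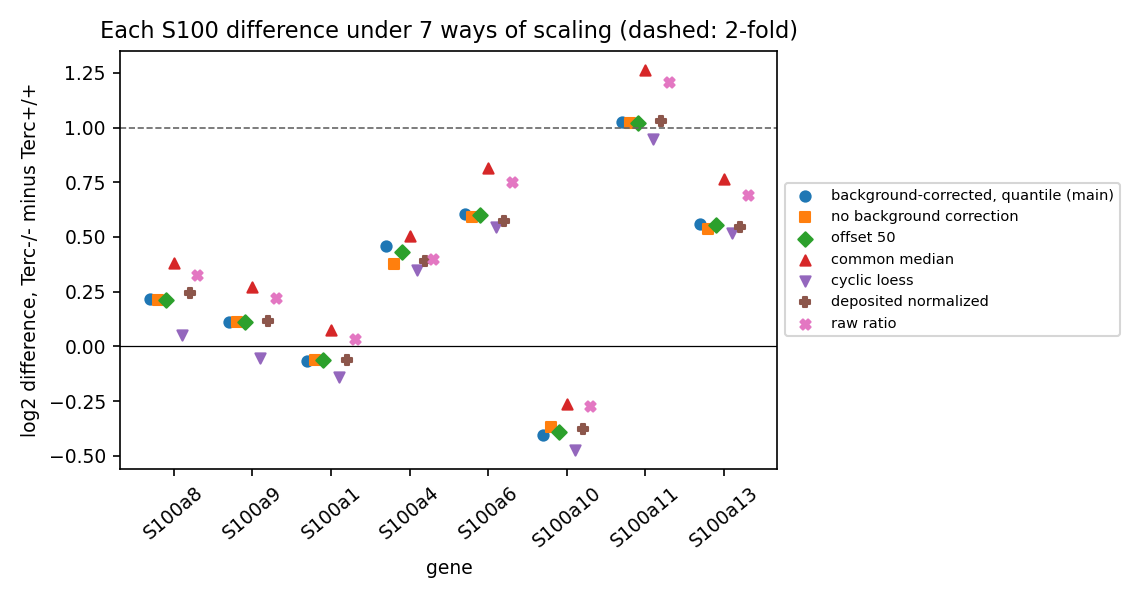
Log2 difference, Terc-/- minus Terc+/+, of each S100 gene under 7 ways of scaling the same 2 arrays (1 point per setting). The dashed line is 2-fold. S100a11 ran from 0.95 to 1.26, S100a10 from -0.47 to -0.26, S100a8 from 0.05 to 0.38 and S100a9 from -0.05 to 0.27.

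For the arrays as a whole, 16640 probes were detected in Terc+/+ and 15363 in Terc-/-, with median raw intensities of 127 and 138. The probe of Terc read 112 on both arrays and was not above background, so the arrays give no check of the knockout. The tissue label was borne out by osteoblast markers, of which 7 of 8 with a probe were detected on both arrays (Dmp1 was not), and all 7 were at least 2-fold lower in Terc-/-. All 7 erythroid markers with a probe and 4 of 5 detected B-cell markers were also at least 2-fold lower, with medians of -3.42 and -1.80. The erythroid list holds no globin gene. The globin genes Hbb-bs, Hba-a1 and Hbb-bt, among the brightest genes, were not lower and differed by 0.09, 0.35 and 0.41. Their mean normalized values of 15.47, 15.39 and 15.30 lay close to the highest value. Of 12 detected monocyte and macrophage markers 7 were lower by 2-fold or more and 1 was higher (Ccr2, at 1.57), with a median of -1.03. The part of these cell types in the S100 differences was not tested.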

How the data were processed

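Per the labels, RNA of 3 tibiae was pooled per genotype, and biotin-labelled cRNA was hybridised to an Illumina mouse bead array. Per the file header, the authors deposited a non-normalized intensity and a detection p-value for each probe. A second deposited table holds normalized intensity. It is linear, kept the rank order of the raw values (Spearman rho of 1 on both arrays) and had a median of 130 in both columns, and its method is not given in the sources used here.

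Background was corrected with normexp from the detection p-values (limma 3.58.1, function nec, offset 16, run under R 4.3.3), followed by quantile normalization and log2. Probe names came from the platform annotation: 34885 probes had 1 gene symbol, 18 several and 10378 none. A gene was read by its brightest probe, and genes with a probe at a detection p under 0.01 on at least 1 array were compared. Calls at 2-fold are a rule of size. A fold given as "at least" is set against the lowest detected signal of the other array. A test was run on simulated arrays of this comparison with 45281 probes. Of 100 probes changed 2-fold (log2 of 1), 50% came out past 2-fold, and of 100 changed 4-fold (log2 of 2), 100%. The 2-fold change lay at the cutoff itself, so its 50% does not measure sensitivity. Only brighter detected probes were changed and no upper limit of signal was simulated. The test therefore does not cover dim probes or those near the brightest signal.

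The members and lists were chosen with earlier results of these data known. The genes named are all S100 genes, the known partners of a member, list members past 2-fold, the 2 marker genes per list with the largest difference where a result turns on them, and the 3 genes nearest to S100a8 and to S100a9. Figures were drawn with matplotlib 3.10.9.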

Additional observations from a re-analysis of the deposited data

How the results depend on the processing

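The 8 differences were recomputed under 9 other settings and, chosen after seeing the data, as plain ratios of the raw intensities. Of these 80 values, 63 moved by less than 0.1, 14 moved by more and kept their sign, and 3 changed sign. The sign changes were S100a9 at -0.055 with cyclic loess, and S100a1 at 0.076 with scaling to a common median and 0.035 as a raw ratio, and the cause was not tested. Members above 0 thus numbered 5 with cyclic loess and 7 with a common median or as raw ratios, against 6 in the main setting. The number of members past the threshold was 0 with cyclic loess, 2 at a 1.5-fold threshold and 0 at a 3-fold threshold, and 1 under the remaining alternatives. The median of all detected genes lay between -0.07 (cyclic loess) and 0.08 (common median). The members' median difference was 0.44 with scaling to a common median and 0.20 with cyclic loess. Among all detected genes, 775 were higher and 1037 lower past 2-fold, against 357 and 499 with no background correction, 510 and 738 with an offset of 50, 639 and 1185 with cyclic loess, 875 and 1015 with scaling to a common median, 363 and 517 with the deposited normalized values, 551 and 675 with each gene's probes averaged and 441 and 439 as raw ratios. At 1.5-fold they were 1788 and 2039, and at 3-fold 190 and 366. All 8 members had a single probe detected on both arrays, so the detection filters and the mean of probes could not change them. By the construction of quantile normalization the differences of S100a8 and S100a9, given their Terc+/+ values, could not exceed 0.62 and 0.51, and saturation was not tested. No paired analysis was possible because each genotype had 1 array.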

Other observations

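Outside the list of neutrophil markers, 13 genes had a probe above 50% of the maximum of the Terc+/+ array and a next probe below it, both detected on both arrays. The dimmer probe had the larger absolute difference in 10 of the 13, with a median absolute difference of 0.40, against 0.20 for the brighter probe. Differences were also more widely spread among dim genes in general. Their quartiles were -0.56 and 0.43 in the 5953 detected genes of lowest mean level, against -0.15 and 0.28 in the 100 of highest. Pairs of less bright probes were not compared, so whether the count is particular to the brightest probes was not tested. Rpl38 differed by -0.02 on a probe reading 45118 in Terc+/+ and by 0.56 on one reading 941, and Myl1, a muscle myosin light chain, by -0.88 and -1.73. Prdx2, a peroxiredoxin abundant in red cells, differed by -2.30 on the brighter and -2.31 on the dimmer probe. This set and these genes were chosen after the values were seen, and the probes of a gene can reach different transcripts.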
